A study of Mus musculus with 13 samples.

Results

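STAT3 binding inside genes, away from their ends, was described in activated mouse B cells. Peaks of 12 libraries on chromosomes 1 to 19, X and Y were joined into 11227 regions wherever they shared 1 bp or more, and the summit of a region was that of its peak with the highest −log10 p. A region was taken as a gene body region when its summit lay within the span of a RefSeq protein-coding gene and more than 1000 bp from either end of any such gene. This rule gave 4413 gene body regions, 39.3% of all regions. For comparison, 1913 regions lay within 1000 bp of a gene end, 2682 outside genes but within 50000 bp of one, and 2219 farther away. The rule used position alone, so the number of libraries with a peak, the fold enrichment and the treatment were free to vary among the members. The gene table holds spans without exons or introns, so "inside a gene" says nothing of which of these was bound.

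The cells were naive splenic B cells grown with IL-4 (12.5 ng/mL) and anti-CD40 (1 µg/mL) over 96 h and then sorted into IgM+ cells and IgG1+ cells, the latter having switched their immunoglobulin class. In a final 1 h, 400000 sorted cells received anti-CD40 with IL-4 (12.5 ng/mL) or anti-CD40 with IL-21 (10 ng/mL). STAT3 was then mapped by CUT&RUN, in which a nuclease tethered by an antibody cuts around the bound protein in opened cells and the fragments set free are sequenced. Wild-type (WT) cells gave 2 libraries for each of the 4 combinations of cytokine and isotype, and STAT3 knockout (KO) cells gave 1 library for each, 12 antibody libraries in all. Every group, KO included, had the same culture with anti-CD40 and IL-4 before the final hour. No IL-4 is recorded in the hour with IL-21, so the arrival of IL-21 and the absence of IL-4 cannot be told apart. The sources used here give neither the age of the mice nor the allele, promoter or Cre behind the KO. Nor do the labels say whether replicates were separate animals, so p-values measure how these libraries vary, which may reflect technique alone. Peak lists hold no expression, so neither the B cell identity nor the loss of STAT3 could be checked against marker genes. The input sample was not analysed here.

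STAT3 is a latent transcription factor. Cytokine receptors such as the IL-21 receptor activate JAK kinases, which phosphorylate STAT3, and STAT3 dimers then enter the nucleus and bind palindromic sites of the form TTCNNNGAA. IL-4 signals mainly through STAT6. Binding sites of signal-dependent factors lie both at promoters and at enhancers, many of which sit inside genes, and IL-21 with STAT3 is known in B cells for germinal centre and plasma cell responses.

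The lists held from 623 to 2034 peaks on the chromosomes used, and their sequencing depth is not given in the files. Fold enrichment is the authors' value for each peak, the ratio of its summit signal to a background. Whether that background came from the same library or from the input is not known here. A library without a called peak may still have had signal there below the calling threshold.

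The sequences of 6 regions are shown first, because they are among the few gene body summits that fall in a promoter window of RefSeq (250 bases before to 50 bases after an annotated start, GRCm38.p6, the assembly of mm10) and because peaks there recurred with IL-21. Each is written 5′ to 3′ on the strand of the annotated transcript. Capitals mark every TTCNNNGAA, which reads the same on both strands, and no other motif was searched.

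Bclaf1, a gene for a splicing and apoptosis-linked nuclear protein, chr10:20312219-20312518, plus strand: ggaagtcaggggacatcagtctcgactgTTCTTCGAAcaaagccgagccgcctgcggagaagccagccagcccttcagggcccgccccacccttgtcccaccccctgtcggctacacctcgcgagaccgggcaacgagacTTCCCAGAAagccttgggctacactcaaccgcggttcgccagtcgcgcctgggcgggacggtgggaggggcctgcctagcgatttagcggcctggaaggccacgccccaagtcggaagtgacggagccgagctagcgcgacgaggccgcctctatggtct
Abcc4, a gene for a membrane transporter, chr14:118706170-118706469, minus strand: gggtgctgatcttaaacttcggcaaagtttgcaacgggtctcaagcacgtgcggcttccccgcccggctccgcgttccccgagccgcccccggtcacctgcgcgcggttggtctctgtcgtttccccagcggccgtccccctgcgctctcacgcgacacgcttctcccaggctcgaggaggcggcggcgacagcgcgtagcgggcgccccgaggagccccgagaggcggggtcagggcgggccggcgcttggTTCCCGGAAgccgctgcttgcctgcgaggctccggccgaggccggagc
C87436, chr6:86438424-86438723, plus strand: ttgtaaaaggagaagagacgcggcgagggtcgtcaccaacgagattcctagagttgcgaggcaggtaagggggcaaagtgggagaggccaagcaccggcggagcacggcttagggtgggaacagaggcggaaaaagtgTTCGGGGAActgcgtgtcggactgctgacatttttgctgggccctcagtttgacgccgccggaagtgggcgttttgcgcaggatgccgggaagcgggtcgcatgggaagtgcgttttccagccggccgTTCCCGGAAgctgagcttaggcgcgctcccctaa
H2-DMb2, a gene for a chain of the H2-M chaperone that loads peptides on MHC class II, chr17:34144999-34145298, plus strand: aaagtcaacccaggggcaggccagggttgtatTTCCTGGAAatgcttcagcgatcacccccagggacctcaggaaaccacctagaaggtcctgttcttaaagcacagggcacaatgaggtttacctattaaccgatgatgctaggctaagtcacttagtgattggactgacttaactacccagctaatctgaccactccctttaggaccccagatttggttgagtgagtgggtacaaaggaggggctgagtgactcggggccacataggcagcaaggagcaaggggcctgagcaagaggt
Bcl3, a gene for an atypical IκB protein, shown in the window of the start of Gm16174 inside it, chr7:19816335-19816634, plus strand: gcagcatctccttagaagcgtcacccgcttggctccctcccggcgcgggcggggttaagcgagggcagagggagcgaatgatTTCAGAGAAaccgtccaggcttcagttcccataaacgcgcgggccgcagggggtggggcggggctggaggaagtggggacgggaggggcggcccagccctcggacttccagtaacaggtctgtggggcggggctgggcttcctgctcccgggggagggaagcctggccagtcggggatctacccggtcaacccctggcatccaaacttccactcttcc
Dennd4a, a gene for a DENN domain protein, shown in the window of the start of Gm36459 inside it, chr9:64811366-64811665, minus strand: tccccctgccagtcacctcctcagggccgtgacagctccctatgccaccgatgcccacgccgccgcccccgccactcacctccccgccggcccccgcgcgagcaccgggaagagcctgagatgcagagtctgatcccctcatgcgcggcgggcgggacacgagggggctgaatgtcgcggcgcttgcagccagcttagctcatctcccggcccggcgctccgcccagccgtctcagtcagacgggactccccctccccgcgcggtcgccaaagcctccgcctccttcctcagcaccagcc

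The summit of the Bclaf1 region lay 6 bp from the middle of the nearer of its 2 motifs, and that of C87436 lay 30 bp from the nearer of its 2. The distances were 81 bp in Bcl3, 143 bp in H2-DMb2 and 158 bp in Abcc4, while the Dennd4a window held no motif. Bclaf1 had folds of 10.2 and 7.75 in the IgM and 3.81 and 7.90 in the IgG1 WT libraries with IL-21, against 4.62 in 1 of the 4 with IL-4. Peaks of Bclaf1 were also called in 2 KO libraries, at 4.51 and 4.94. The C87436 region had folds of 9.91, 12.9 and 10.9 in 3 of the 4 WT libraries with IL-21 and no peak in any other library. The H2-DMb2 region had 10.6, 4.72 and 7.90 in 3 of them, with 3.92 in 1 WT library with IL-4 and 5.90 in 1 KO library.

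Motif matches were counted in all windows that held a gene body summit. Of 74 windows under regions found in 1 library, 0 held a match, which allows a share of up to 4.86% (exact 95% Clopper-Pearson limit). Of 28 windows under regions found in 2 or more libraries 7 held one, or 25% (10.7% to 44.9%), and of 8 windows under regions of 3 or 4 WT libraries with IL-21 6 did (75%, 34.9% to 96.8%). Several windows share a region: the last 8 windows came from 6 regions, 5 of them with a match. Under summits near gene ends the shares in the same order were 7.25% of 538 windows, 14.5% of 269 and 35.6% of 59. Of all 32817 promoter windows with a sequence, 2722 (8.29%) held a match. These shares are descriptions, since they were computed after the recurrence of the regions was known, and a match is not shown to be a bound site.

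Most gene body regions were seen once. Of the 4413, 4162 had a peak in exactly 1 library and 251 in 2 or more (5.69%, exact 95% Clopper-Pearson interval 5.02% to 6.41%). Over all regions 9.33% recurred in this sense, and near gene ends 508 of 1913 did (26.6%, 24.6% to 28.6%). Such intervals cover counting error only. The numbers of gene body regions fell off steeply, with 123 in 2 libraries, 70 in 3, 36 in 4, 10 in 5, 5 in 6, 4 in 7, and 1 each in 9, 11 and 12. Per length of genome, the gene interiors (988 Mb) held 4.21 single-library regions per Mb and the windows at gene ends (79.2 Mb) held 17.7, a ratio of 4.21. For regions in 2 or more libraries the densities were 0.254 and 6.41 per Mb, a ratio of 25.3.

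**Figure D1:**
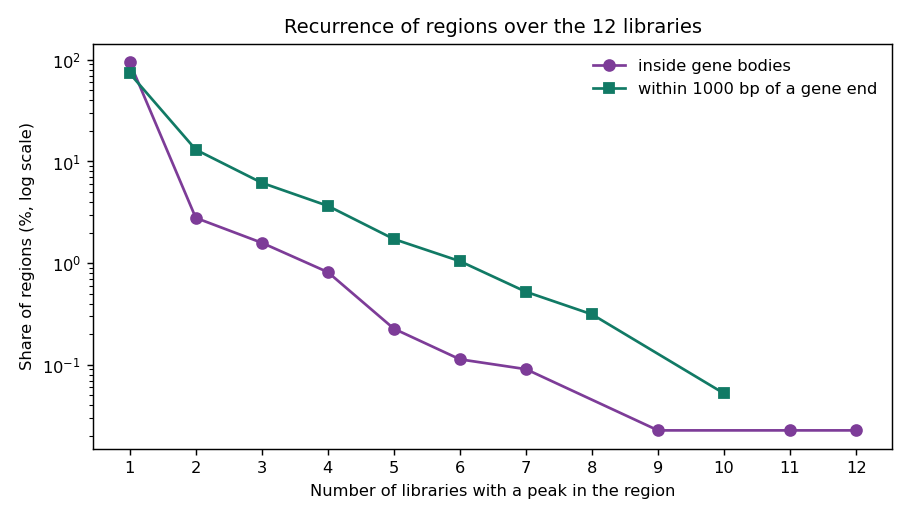
Share of regions (%, log scale) by the number of libraries with a peak, for regions inside gene bodies (circles) and within 1000 bp of a gene end (squares). Beyond 1 library the gene end shares lie above the gene body shares wherever both classes have regions, and the last 3 gene body points are 1 region each.

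The same contrast held inside every list. The share of peaks found again, that is, lying in a region with a peak in at least 1 of the other 11 libraries, was lower for gene body peaks than for gene end peaks in 12 of 12 libraries, by 35.6 ± 6.30 percentage points (SD, n = 12). The exact two-sided sign-flip permutation test gave p = 0.000488, the smallest it can give, although libraries share regions and are not independent in this measure. Peak height differed little between the classes. The median fold of gene body peaks was lower by 0.064 ± 0.042 on the log2 scale (SD, n = 12) and lower in 11 of 12 libraries (exact sign-flip permutation p = 0.000977). The difference was -0.015 and lost its call (p = 0.383, exact sign-flip permutation) when each list was limited to its 623 strongest peaks, and -0.0097 (p = 0.480, exact sign-flip permutation) when only peaks with a −log10 q of 5 or more were kept.

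The first question of the design was how these regions responded to IL-21. In WT cells gene body peaks made up a smaller share of the lists with IL-21 than with IL-4. The share was 33.5% and 33.3% in the IgM and 33.2% and 34.0% in the IgG1 libraries with IL-21. With IL-4 it was 39.3% and 38.2% in the IgM and 39.2% and 38.2% in the IgG1 libraries. All 4 libraries with IL-21 lay below all 4 with IL-4. The means were 33.5% ± 0.364 and 38.7% ± 0.598 (SD, n = 4 each), a difference of -5.23 percentage points with an exact two-sided permutation p of 0.0556 within isotype (adjusted p = 0.167). This p is the smallest that 36 arrangements allow, so no contrast of treatment or isotype here could reach 0.05. The share of peaks near gene ends was 25.1% to 31.5% with IL-21 and 8.51% to 19.9% with IL-4. The log2 ratio of gene body to gene end peaks was accordingly lower with IL-21, by 1.18 (exact permutation p = 0.0556, adjusted p = 0.167).

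**Figure D2:**
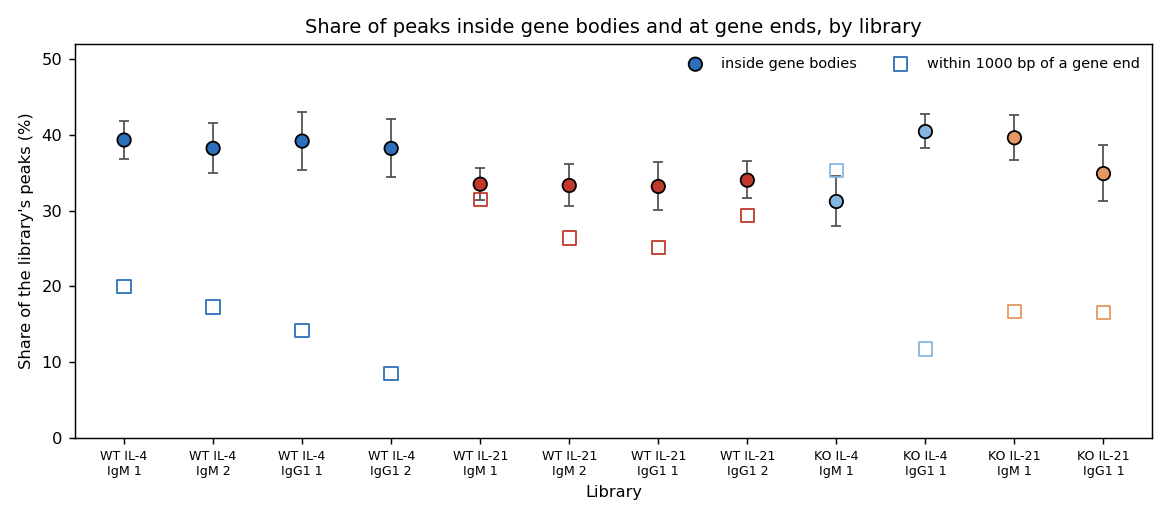
Share of each library's peaks (%) inside gene bodies (filled circles, bars are exact 95% Clopper-Pearson intervals) and within 1000 bp of a gene end (open squares), by genotype, cytokine, isotype and replicate. The 4 WT libraries with IL-21 lie between 33.2% and 34.0% for gene bodies, below the 38.2% to 39.3% of the WT libraries with IL-4, and the KO libraries run from 31.2% to 40.4%.

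In number, gene body peaks did not separate the treatments. WT libraries with IL-21 held 681 and 390 (IgM) and 287 and 505 (IgG1), and those with IL-4 held 572 and 326 (IgM) and 255 and 238 (IgG1). The mean was 1.36-fold higher with IL-21 (exact permutation p = 0.222, adjusted p = 0.333). With every list limited to its 623 strongest peaks the log2 difference turned to -0.31 (exact permutation p = 0.0556).

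Recurrence was higher in the IL-21 libraries. In the WT libraries with IL-21, 29.5% and 31.5% (IgM) and 22.3% and 31.3% (IgG1) of gene body peaks were found again in another library. With IL-4 the shares were 8.74% and 3.99% (IgM) and 6.27% and 4.62% (IgG1). The 2 sets do not overlap, with means of 28.7% ± 4.33 and 5.91% ± 2.12 (SD, n = 4 each), a difference of 22.8 percentage points (exact permutation p = 0.0556, adjusted p = 0.167). The lists with IL-21 were the longer ones within each isotype on average, and with every list limited to its 623 strongest peaks the difference was 41.6 percentage points (exact permutation p = 0.0556). Peaks near gene ends separated in the same way, with 51.4% to 66.7% found again with IL-21 and 35.8% to 47.8% with IL-4. The treatment difference of gene body peaks was 5.66 percentage points larger than that of gene end peaks, which is within the spread between libraries (exact permutation p = 0.389).

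**Figure D3:**
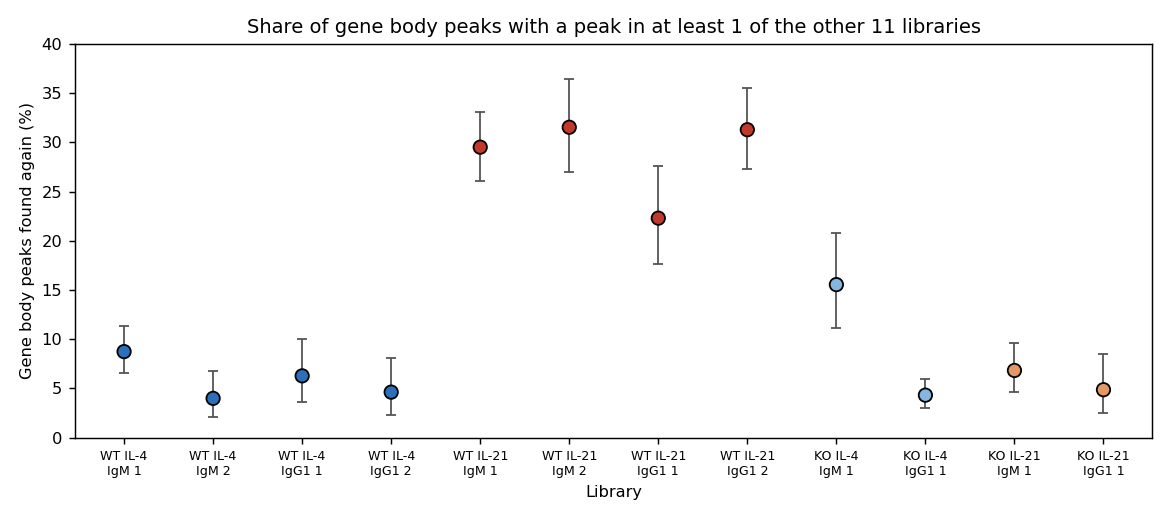
Share (%) of the gene body peaks of each library that lie in a region with a peak in at least 1 of the other 11 libraries, with exact 95% Clopper-Pearson intervals. The 4 WT libraries with IL-21 lie at 22.3% to 31.5%, and the other 8 libraries at 3.99% to 15.5%.

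In the full lists the fold enrichment of the typical gene body peak differed little between the treatments, and the upper tail differed more. Both differences depended on which peaks were kept. The median fold was 5.21 and 4.43 (IgM) and 4.71 and 4.74 (IgG1) with IL-21 and 4.29 and 4.22 (IgM) and 4.41 and 4.78 (IgG1) with IL-4, so the sets overlapped (difference 0.347, exact permutation p = 0.167, adjusted p = 0.370; 1.43 with p = 0.111 for the 623 strongest peaks of each list). Gene body peaks with a fold of at least 10 numbered 56 and 14 (IgM) and 6 and 21 (IgG1) with IL-21, against 1 and 0 (IgM) and 0 and 1 (IgG1) with IL-4. The 4 KO libraries had 1, 0, 0 and 0. These counts come from lists of unlike length. In WT, the share of gene body peaks with a fold of at least 5 was 28.7% to 52.1% with IL-21 and 20.8% to 37.8% with IL-4. Near gene ends it was 41.1% to 62.5% with IL-21 and 26.9% to 39.6% with IL-4, so the shift was not particular to gene bodies. Within the IL-21 libraries, the median fold of peaks found again was 5.47 to 7.28 and that of the other gene body peaks 4.26 to 4.82. In the IL-4 libraries the peaks found again had medians of 4.22 to 4.77, close to the 4.22 to 4.78 of all others.

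Region by region, 25 gene body regions had a peak in all 4 WT libraries with IL-21 and in none of the 4 with IL-4, and are called gained. They are 0.874% of the 2859 gene body regions found in WT, where the share over all regions found in WT is 1.31% and near gene ends 2.76% (40 of 1447). The reverse pattern had 0 gene body regions and 0 regions in all. Fisher's exact test gave each gained region p = 0.0286, the smallest that 4 against 4 libraries allow, and after Benjamini-Hochberg adjustment over the 7461 regions found in WT 0 regions passed, against 98 at an unadjusted p under 0.05. No peak was called in either KO library with IL-21 at any of the 25, and in 23 none was called in any KO library. A peak in any KO library was called at 8% of the 25, at 6.12% of all gained regions and at 2.17% of all gene body regions found in WT. Absence from the KO lists was thus common. The share without a KO IL-21 peak is not given here over all gained regions. Leaving out the first IgG1 library with IL-21, which has the shortest list of that treatment, gave 61 gained regions. That call asked for a peak only in the IL-21 libraries left. The count was 69 when any 3 of the 4 libraries sufficed.

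The 25 lay in genes of several kinds. Among those for cytokines and receptors was Il10, the gene of an immunoregulatory cytokine. Its region (chr1:131022698-131023418, 2044 bp from the nearer gene end) had folds of 20.5 and 9.68 in the IgM and 11.8 and 13.9 in the IgG1 libraries (mean 14.0 ± 4.68, SD, n = 4). Notch1, a receptor that controls lymphocyte fate, held a region (chr2:26492987-26493934) 10276 bp from its 5′ end with folds of 22.3 and 8.02 (IgM) and 6.67 and 14.2 (IgG1). Il1r1, which encodes the signalling receptor of interleukin-1, had 16.5 and 6.16 (IgM) and 8.57 and 11.2 (IgG1) at chr1:40262652-40263613. In all 3 genes the first IgM library was highest, and neither the WT libraries with IL-4 nor the KO libraries held a peak. Csf2ra, the gene of the GM-CSF receptor alpha chain, had a weaker region with a mean of 6.81 ± 2.92 (SD, n = 4).

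Signalling genes formed another set. Ptpn1 encodes the phosphatase PTP1B, which acts on JAK kinases and insulin receptor signalling. Its region (chr2:167958973-167960164, 19442 bp from the nearer gene end) had folds of 15.4 and 6.03 (IgM) and 5.48 and 12.3 (IgG1). Rras2, a Ras family GTPase, had 18.7 and 11.6 (IgM) and 6.04 and 13 (IgG1) at chr7:114083814-114084550. Map3k1, a kinase at the head of JNK and ERK cascades, had 16.7 and 8.13 (IgM) and 4.46 and 13.1 (IgG1) at chr13:111809214-111810051. In Rras2 and Map3k1 the 2 isotypes overlapped, as they did in Ptpn1, with the lowest value in the first IgG1 library each time. Dennd4b, a regulator of Rab GTPases, had 17.1 and 13.2 (IgM) and 9.63 and 8.02 (IgG1) and lay just inside the distance limit, 1011 bp from the gene end. It was 1 of the 2 gained regions with KO peaks, at 5.07 and 4.44 in the KO libraries with IL-4.

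Genes of nuclear proteins included Bcl3, which binds NF-κB subunits. Its region (chr7:19816034-19817665, 6484 bp from the 5′ end) had 15.0 and 10.1 (IgM) and 5.01 and 10.2 (IgG1) and is the one whose sequence is shown above. Phf6, a PHD finger protein of chromatin, had 19.4 and 13 (IgM) and 11.8 and 10.1 (IgG1) at chrX:52929463-52930575. Here both IgM values stood above both IgG1 values. Zfp446, a zinc finger gene, had 18.4 and 11.3 (IgM) and 8.93 and 13.6 (IgG1) at chr7:12977716-12978431. Cic, a transcriptional repressor downstream of receptor tyrosine kinases, had 16.5 and 7.09 (IgM) and 6.40 and 12.3 (IgG1), with 3.59 in the KO IgG1 library with IL-4. Crem, a cAMP-responsive factor, had 12.4 and 10.51 (IgM) and 5.72 and 9.17 (IgG1). Sbno2, a transcriptional coregulator known as part of the IL-10 and STAT3 response of macrophages, had a mean of 8.78 ± 4.29, and E2f2, a cell cycle factor, 8.94 ± 4.77 (SD, n = 4 each).

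The highest mean of all belonged to Rnf157, a RING finger ubiquitin ligase, with 20.0 and 11.5 (IgM) and 6.92 and 23.5 (IgG1), mean 15.5 ± 7.59 (SD, n = 4), at chr11:116376907-116377601. Arih1, another ubiquitin ligase, had 15.2 and 4.94 (IgM) and 6.99 and 8.81 (IgG1). The region in Cdh17, a cadherin gene, had 14.5 and 10.2 (IgM) and 4.71 and 15.6 (IgG1). The remaining regions were in Armc9, Cradd (a death domain adaptor), Katnal1 (a microtubule-severing subunit), the overlapping genes Gapdhs and Sbsn, Ptpn3 (a tyrosine phosphatase), Abcc4 and Ppp1r16b (a subunit of protein phosphatase 1). Mean folds of the 25 ran from 4.83 in Ppp1r16b to 15.5, with a median of 9.79, and 12 had a mean of at least 10.

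**Figure D4:**
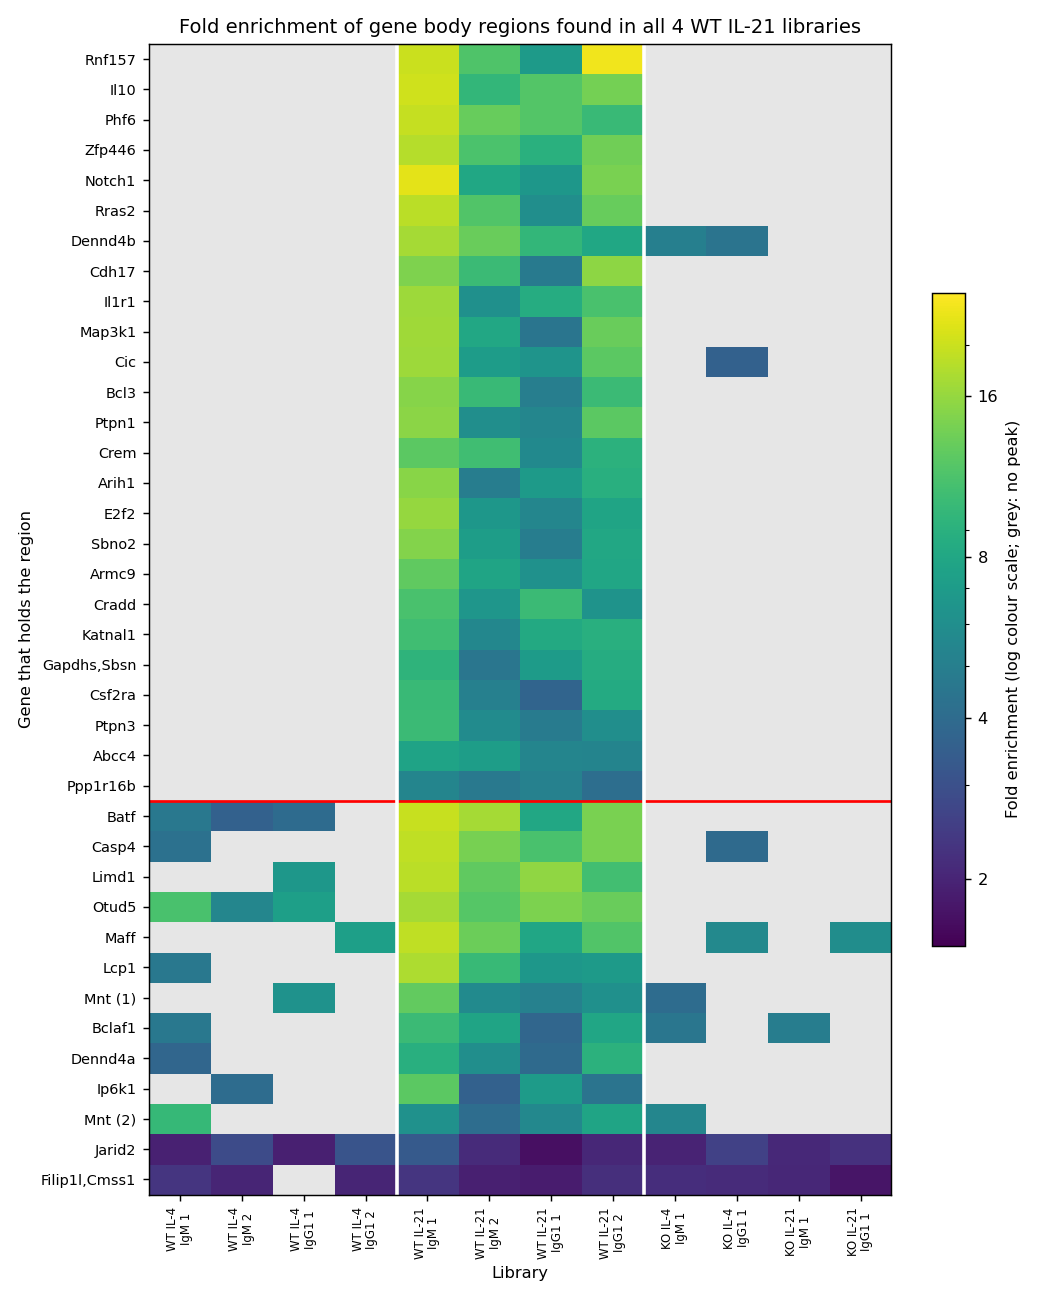
Fold enrichment (log colour scale, grey where no peak was called) of the 38 gene body regions with a peak in all 4 WT libraries with IL-21, in each of the 12 libraries. The 25 above the red line had no peak with IL-4 in WT, the 13 below it had at least 1, and the Jarid2 and Filip1l rows are low and present in nearly every library.

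A further 13 gene body regions had peaks in all 4 WT libraries with IL-21 and in at least 1 with IL-4, making 38 in all. Of the 1543 gene body regions found with IL-21 in WT these 38 are 2.46% (3.88% over all regions), and 65.8% of the 38 were gained, against 58.7% over all regions. Batf, the gene of an AP-1 family factor needed for class switching, stood out among the 13. Its region (chr12:85704766-85706357, 3164 bp from the 3′ end) had 19.8 and 17.2 (IgM) and 8.09 and 14.2 (IgG1) with IL-21, and 4.61, 3.60 and 4.00 in 3 of the 4 libraries with IL-4. Every IL-21 value was above every IL-4 value, and no KO library had a peak. Otud5, a deubiquitinase gene next to Pim2, also had 3 peaks with IL-4, at 11.2, 5.48 and 7.34, below the 17.2, 11.9, 14.3 and 13.2 with IL-21. Casp4 (an inflammatory caspase, mean 14.6 ± 3.29 with IL-21), Limd1 (a LIM domain scaffold, 14.4 ± 3.51), Maff (a small Maf factor, 13 ± 4.62) and Lcp1 (an actin-bundling protein of leukocytes, 10.3 ± 5.12, SD, n = 4 each) each had 1 peak with IL-4, of 4.29, 6.67, 7.35 and 4.62. Only 1 WT library with IL-4 had a peak in 9 of the 13. In 7 of the 13 every IL-4 value lay below every IL-21 value, a count that was not made over all regions.

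In the other 6 the values overlapped. Jarid2 and Filip1l among them were low and common, while Bclaf1, Ip6k1 and the 2 regions of Mnt had 1 IL-4 peak each and means of 5.91 to 7.44 with IL-21. The region in Jarid2, a subunit of Polycomb repressive complex 2 (chr13:44869579-44870010), had a peak in all 12 libraries with folds of 1.69 to 3.33, and that in Filip1l, which overlaps Cmss1 (chr16:57391268-57391604), in 11 with folds of 1.76 to 2.32. In Jarid2 the mean fold was 2.29 with IL-21, 2.46 with IL-4 and 2.22 in KO. A region in Peak1 recurred in 9 libraries at 2.03 to 3.05. In these 3, which had the most libraries of all gene body regions, the values of the treatments and genotypes overlapped. Mnt encodes a Max-binding repressor that opposes Myc, and 1 of its regions had 9.83 in a WT library with IL-4, above the 4.09 to 7.73 with IL-21.

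Outside these 38, partial patterns leaned the same way. In 44 gene body regions 3 WT libraries with IL-21 and none with IL-4 had a peak, and in 87 regions 2 and none. In the reverse direction 2 regions had a peak in 2 WT libraries with IL-4 and none with IL-21, and 0 in more than 2. In all, 188 gene body regions had peaks in 2 or more WT libraries with IL-21, 11 in 2 or more with IL-4, and 28 in 2 or more of the 4 KO libraries. These patterns were not counted over all regions, so they are not shown to be particular to gene bodies.

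Some genes held several regions. Ksr1, a scaffold of the ERK cascade, had 10 gene body regions, Trio 9 and Ppp1r16b 8. Of these, 3, 1 and 4 were found in 2 or more libraries. The genes are 133094, 295200 and 99602 bp long, and the part of length in these numbers was not tested. In Ppp1r16b 4 of the 8 were gained in at least 1 isotype, and in Cradd 3. Syk, the kinase that couples the B cell receptor to its pathway, had 2 such regions. They were called in the same 3 libraries, with 7.42, 6.92 and 5.69 at chr13:52584775-52585375 and 13.1, 6.09 and 5.06 at chr13:52635795-52636789. In both the missing library was the first IgG1 library.

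The second question was whether isotype mattered. Taken alone, IgM cells gained 89 of 1817 gene body regions with IL-21 (4.90%, against 6.64% over all regions). IgG1 cells gained 42 of 1218 (3.45%, against 5.54% over all regions). Of the 89, 66 had a peak in at least 1 IgG1 library with IL-21, and of the 42, 41 had one in an IgM library. Regions lost with IL-21 numbered 0 in IgM cells (0.206% over all regions) and 1 in IgG1 cells (0.0306%), in Myo3a, an unconventional myosin gene, at 6 and 4.27 with IL-4. That Myo3a region was also called in 2 KO libraries at 4.05 and 4.32.

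With IL-21, 25 of 1543 gene body regions were called in the IgM libraries alone, in both of them (1.62%, against 2.16% over all regions). In both IgG1 libraries alone 1 was called (0.0648%, against 0.302% over all regions). With IL-4 the numbers were 0 of 1372 (0.556% over all regions) and 1 (0.0729%, against 0.117% over all regions). The strongest of the IgM set without WT IL-4 or KO IL-21 peaks were in Rnf44 (11.6 and 8.25), Serpinb1c (9.18 and 9.41), Tnrc6b (8.48 and 8.30), Tspan13 (9.54 and 6.36) and Slc38a9 (10.2 and 4.91). The single IgG1 region lay in Rab20, a Rab GTPase gene (7.31 and 5.32). One IgG1 library given IL-21, the first, had 287 gene body peaks, the fewest of the 4, and its part in this imbalance was not tested. A comparison of 2 with 2 libraries cannot reach 0.05. Leaving out 1 library moved the IgM count to between 25 and 530 and the IgG1 count to between 1 and 355. The call then asked only for the libraries left, in some cases 1 library of an isotype, which is a looser rule.

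By level, the mean of the IgM libraries was the higher in 23 of the 25 gained regions (median of the means 11.3, against 8.55 for IgG1). Both IgM values lay above both IgG1 values in 4 of them, and the reverse held in 0. Sets of 2 and 2 libraries can separate in this way without a difference between isotypes. The same counts were not made over all gained regions, so neither the 23 nor the 4 are read as an isotype result. Median folds over the 25 were 15.2 and 7.16 in the IgM and 6.24 and 9.17 in the IgG1 libraries. The first IgM library was the highest of the 4 in 23 of the 25 regions, the second IgM library in 0, and the first IgG1 library was the lowest in 15. Over all gene body peaks, the median fold differed by -0.123 between IgM and IgG1 (exact permutation p = 0.556), the share of peaks by -0.0606 percentage points (p = 1, exact permutation) and the number by a factor of 1.54 (exact permutation p = 0.167, adjusted p = 0.333). None of these differences exceeded the spread between libraries. The first 2 changed direction when single libraries were left out.

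The third question was the genotype. KO libraries had 648 to 1892 peaks in all and, inside gene bodies, 238 and 765 with IL-4 (IgM and IgG1) and 425 and 226 with IL-21. The WT to KO difference within cytokine and isotype was 0.06 on the log2 scale (exact permutation p = 0.914) and, in share of peaks, -0.418 percentage points (exact permutation p = 0.679). Leaving out single libraries moved the first of these to between -0.20 and 0.63, and the second to between -3.08 and 1.51. The median fold was 0.210 higher in WT (exact permutation p = 0.247), and the share of peaks with a fold of at least 5 was 33.4% in WT and 21.8% in KO (exact permutation p = 0.0988, adjusted p = 0.167).

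Few gene body regions were shared between the genotypes. Of the 2859 gene body regions of WT cells, 62 were also called in at least 1 KO library (2.17%, against 4.73% over all regions and 14.0% near gene ends). Of the 38 regions in all 4 WT libraries with IL-21, 9 had a KO peak (23.7%, against 25.1% over all regions of that kind), a larger share than among all gene body regions found in WT. In the KO libraries with IL-21, 34 of the 38 had no peak (89.5%, against 83.2% over all regions in all 4 WT libraries with IL-21 and 95.6% near gene ends). The share of gene body peaks found again was 15.5% and 4.31% in the KO libraries with IL-4 (IgM and IgG1) and 6.82% and 4.87% in those with IL-21. The KO libraries with IL-21 thus lay with the IL-4 libraries of WT and below all WT libraries with IL-21. Over all 4 groups the WT mean was 17.3% and the KO mean 7.89% (exact permutation p = 0.136, adjusted p = 0.204), and a KO library had fewer libraries of its own genotype to be found in.

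In KO cells the share of gene body peaks did not move one way with IL-21. It was higher with IL-21 by 8.42 percentage points in IgM cells and lower by 5.56 in IgG1 cells, with 1 library each. The KO IgM library with IL-4 had the lowest gene body share of all, 31.2%, and the highest share near gene ends, 35.3%.

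A further 1554 gene body regions were found in KO libraries alone, and 10 of them in 2 or more (0.644%, against 1.35% over all regions found in KO libraries alone). St6galnac1, which encodes a sialyltransferase, held the only gene body region with a peak in all 4 KO libraries and no WT library (chr11:116765328-116767010, 1091 bp from the gene end). Its folds were 4.83 and 8.27 with IL-4 and 4.96 and 9.36 with IL-21 (IgM and IgG1). Both IgG1 values were above both IgM values. Akap6, Parp11, Arhgap25 and Mef2b, which overlaps Gm45929, had 2 KO peaks each. All of these were called in cells labelled as lacking the antibody's target.

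Gene body regions that recurred differed from the rest in where they lay. Of 243 recurrent regions on chromosomes covered by the promoter table, 57 (23.5%, exact 95% Clopper-Pearson interval 18.3% to 29.3%) had a start of an annotated transcript within 1000 bp of the summit, against 5.15% of 4040 found in 1 library. Such starts are starts of other transcripts inside the gene or further starts of the host gene, some of them close to its 5′ end. The rule keeps out only summits within 1000 bp of an end of a protein-coding gene. For the regions of all 4 WT libraries with IL-21 it was 11 of 37 (29.7%), and for the gained regions 8 of 24 (33.3%). Inside each list, the share near a start was higher for peaks found again than for the others in 11 of 12 libraries, by 19 ± 10.9 percentage points (SD, n = 12; exact sign-flip permutation p = 0.000977, with libraries that share regions). The exception was the second WT IgM library with IL-4, with 0 of 13 peaks found again near a start. Among the gained regions the summit lay 57 bp from an annotated start of Cic, 65 bp from one of Sbno2, 245 bp from that of Gm16174 in Bcl3 and 460 bp from that of Gm15327 in Map3k1. Other summits near a start of the host gene lay close to its 5′ end. They were 1011 bp from that end in Dennd4b, 1339 bp in Arih1, 1485 bp in Abcc4 and 1908 bp in Gapdhs. The distances to the annotated start were 483, 473, 152 and 798 bp. Summits in Notch1, Ptpn1, Rras2 and Rnf157 were 10276 bp or more from any start.

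**Figure D5:**
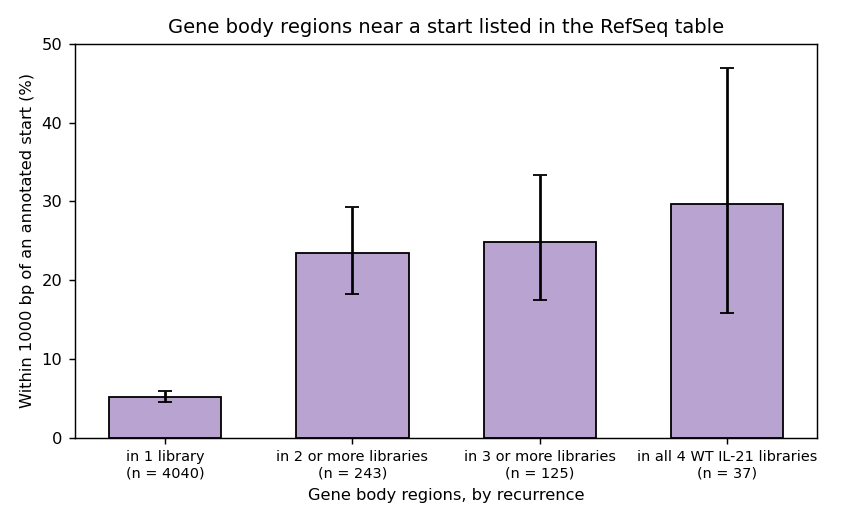
Share (%) of gene body regions whose summit lies within 1000 bp of a start in the RefSeq promoter table, by recurrence; bars are exact 95% Clopper-Pearson intervals and n is the number of regions on chromosomes the table covers. The share is 5.15% for regions of 1 library and 23.5% for those of 2 or more.

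The treatment showed in this measure too. Of the gene body peaks, 14.0% and 11.8% (IgM) and 8.54% and 13.7% (IgG1) lay near such a start in the WT libraries with IL-21, against 7.96% and 2.55% (IgM) and 6.07% and 3.56% (IgG1) with IL-4. The sets do not overlap (12% ± 2.52 and 5.03% ± 2.45, SD, n = 4 each; exact permutation p = 0.0556, adjusted p = 0.167). The KO libraries had 11.3% and 4.01% with IL-4 and 5.10% and 3.14% with IL-21. The WT to KO difference was 2.64 percentage points (exact permutation p = 0.333). Position along the gene differed less. The first 20% of the gene, read from the 5′ end, held 22.3% of single-library regions, 29.2% of recurrent ones and 13 of 32 regions (40.6%) of all 4 WT libraries with IL-21, and the IL-21 libraries did not differ from the IL-4 libraries beyond their spread (difference 1.77 percentage points, exact permutation p = 0.556).

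Recurrent regions were also wider and sat in shorter genes. The median width was 255 bp for regions of 1 library and 544 bp for those of 2 or more, where merging several peaks widens a region by construction. The 3218 host genes, 14.7% of the 21887 protein-coding genes, had a median length of 70877 bp, against 17169 bp for all genes. Hosts of single-library regions had a median of 100491 bp per region and those of recurrent regions 56428 bp. Gene length thus moved with recurrence, and its part was not tested.

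Gene lists for the tissue and treatment were counted against all 21887 genes, of which 14.7% had a gene body region, 1.08% a recurrent one and 0.448% one gained in at least 1 isotype. JAK-STAT signalling and feedback genes had 13 of 36 with a region and 4 with a recurrent one (Bcl3, Jak1, Ptpn1 and Ptpn2), of which Bcl3 and Ptpn1 were gained. Of the receptor chains in that list Il2ra alone held a gene body region, and of the Socs inhibitors Socs4, Socs5 and Socs7 did, but not Socs1 or Socs3. Summits within 1000 bp of a gene end are left out by the rule, so a short gene has little or no room for a gene body region. The absence in Socs1 and Socs3 is therefore not read as a lack of binding. For B cell identity and germinal centre the numbers were 14 of 35 and 5 recurrent. Among these the chemokine receptor gene Ccr7 (5.15 and 5.26) and Pou2f2, the gene of Oct2 (8.83 and 4.98), were gained in IgM cells. The KO IgM library with IL-21 was called at both as well, at 7.11 (above both WT values) and 6.18 (between them). Irf8 and Pou2af1 had peaks in 1 library of each isotype with IL-21.

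Plasma cell differentiation had 7 of 18 with a region, with Batf and Il10 recurrent and Il10 gained. The regions in Irf4 and Prdm1, main regulators of that fate, were each found in 1 library. Survival and cell cycle genes had 7 of 27, with Bcl2l1, Klf10, Mcl1 and Mnt recurrent. The recurrent region in Bcl2l1, which encodes the survival factor Bcl-xL, was found in the IgM libraries with IL-21 alone, at 9.18 and 5.29. Bcl2l1 held 4 gene body regions, of which 1 recurred. Mcl1, another survival gene, had 8.85, 3.72 and 5.70 with IL-21 and 3.46 with IL-4. IL-4 and STAT6 responsive genes had 6 of 17, of which Batf, Bcl2l1, Il4i1 and Tnfrsf8 recurred.

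The other lists were counted in the same way. NF-κB and CD40 signalling had 4 of 24 with 1 recurrent (Nfkbiz), AP-1 and immediate early factors 3 of 21 with 0, and small GTPase regulators and adhesion 16 of 30 with 3 (Arhgap25, Arhgef2 and Rasgrp3). None of these 3 lists had a gained region. Since 0.448% of all genes had one, an absence in lists of 21 to 30 genes says little. Rras2 and Map3k1, which held gained regions, are not in these lists, and Bcl3 was counted under JAK-STAT signalling. Genes of other cell types were nearly empty, with 1 of 14 myeloid markers (Adgre1) and 0 of 17 T and NK cell markers holding a region, and housekeeping genes had 1 of 12 (Ywhaz). The lists differ in gene length, from a median of 3912 bp for the myeloid markers to 47714 bp for the GTPase and adhesion genes, and the part of length in these shares was not tested.

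The distance limit of 1000 bp had neighbours on both sides. The nearest regions inside it among those of all 4 WT libraries with IL-21 were Dennd4b at 1011 bp (12 ± 4.03), Maff at 1124 bp (13 ± 4.62) and Csf2ra at 1247 bp (6.81 ± 2.92). The nearest outside were Jund at 898 bp (6.67 ± 1.69), Washc1 at 533 bp (10.9 ± 8.72) and a second Cic region at 435 bp (5.50 ± 1.54, SD, n = 4 each). A limit of 5000 bp left 18 of the 25 gained regions.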

How the data were processed

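Members and lists were chosen with earlier results of these data known. Tools in the submitters' processing notes, given without roles, are MACS2 2.2.7.1, Bowtie2 2.4.1, deepTools 3.5.1 and Trimmomatic 0.39, and the build is mm10. The sources used here do not give the control for peak calling, read filters or the use of the spike-in. Each of the 12 antibody libraries has a peak list deposited by the authors. The deposited lists give a score, a fold enrichment (a ratio) and the −log10 of p and of q. The lowest deposited −log10 p was 5.00. Of 13908 peaks, 395 on other sequences were left out and 13513 used.

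Where a library had several peaks in a region, the highest fold was taken. Gene spans came from a RefSeq table (GRCm38.p6), and annotated starts and window sequences from RefSeq promoter windows of the same build. Library measures were compared by exact two-sided permutation within strata, adjusted over 3 contrasts per measure (Benjamini-Hochberg), and regions by Fisher's exact test, with Python 3.11.15, NumPy 2.4.6, SciPy 1.17.1 and pandas 2.3.3. The steps were tested on simulated lists. Named regions are the 15 strongest gained, the 8 strongest with IL-4 peaks, the 5 strongest of each isotype, lost regions, the 5 in most libraries, the 5 strongest KO regions and members of the 11 gene lists; other names were added after their values were seen, as were the measures of annotated starts, position and motif, the ratio to gene end peaks and the share with a fold of at least 5. Alternatives were a stricter −log10 q, equal list lengths, narrower peaks, other distances, the region's middle, no predicted genes, the replicate block and each library left out.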

Additional observations from a re-analysis of the deposited data

Results flagged for a closer look

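Of 65 sets of 4 libraries, 2 had a library far from the others; chance marks about 1 in 20. Among the KO libraries the strongest gene body peak had a fold of 26.5 in IgM cells with IL-4, against 7.41 to 9.36 in the other KO libraries. It lay in Deptor, which encodes an inhibitor of mTOR (chr15:55160631-55160893), and no other library had a peak there. In Mnt, the region with its summit 6935 bp from the gene end had a fold of 12.7 in the first WT IgM library with IL-21 and 5.16 to 6.14 in the other 3.

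In 7 of 8 library measures compared, in 1 or both isotypes, the difference of IL-21 minus IL-4 had opposite signs in KO and WT, where every WT library with IL-21 lay on 1 side of every one with IL-4 of that isotype. With 1 KO library for each group the differences between genotypes were not tested. The log2 number of gene body peaks in IgG1 cells differed by -1.76 in KO and 0.63 in WT. In IgM cells the share of gene body peaks differed by 8.42 percentage points in KO and -5.37 in WT, the median fold by -0.127 and 0.564, and the share found again by -8.72 and 24.2 percentage points. Also in IgM cells, the log2 ratio of gene body to gene end peaks differed by 1.42 in KO and -0.85 in WT, and the share with a fold of at least 5 by -7.78 and 19 percentage points. The share of peaks within 1000 bp of an annotated start differed by -6.21 in KO and 7.69 in WT in IgM cells, and by -0.866 and 6.29 in IgG1 cells. The KO library of IgM cells with IL-4 enters every IgM value.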

How the results depend on the processing

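Of the 409 values recomputed for the main comparisons, 365 kept their direction and their side of the threshold. Another 30 changed direction, 12 counts moved by over 1.5 times and 2 lost their call. No contrast of treatment or isotype could reach the threshold, so for these only the direction was free to change. The count of lost regions, 0 in the main run and with each WT library left out, also enters the 365. The tally therefore says little about the stability of test results. With IL-21 against IL-4, the share of gene body peaks, the share found again, the ratio to gene end peaks and the median fold kept their direction under every alternative run. Among peaks whose −log10 q reached 5, the share differed by 0.411 percentage points for IgM minus IgG1 and 3.20 for WT minus KO, the share found again by -1.24 for IgM minus IgG1, the log2 ratio to gene end peaks by 0.21 for WT minus KO, and the share with a fold of at least 5 by -7.87 for IL-21 minus IL-4 and -0.440 for WT minus KO; the log2 fold against gene end peaks was -0.0097, and 3 regions were found in IgG1 cells alone. With lists of equal length, the log2 number of peaks differed by -0.31 (IL-21 minus IL-4), -0.069 (IgM minus IgG1) and -0.038 (WT minus KO), the median fold by 0.787 and the share with a fold of at least 5 by 8.21 (both IgM minus IgG1), the log2 fold against gene end peaks was -0.015, and 4 regions were found in IgG1 cells alone. The share for IgM minus IgG1 was 0.157 without predicted genes, and the upper quartile of fold differed by 0.103. Accepting 3 of the 4 WT libraries with IL-21 gave 69 gained regions, 69 of them without a KO IL-21 peak. The cause of these changes was not tested.

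With peaks reduced to 200 bp around their summits, 19 regions were gained, 17 of them among the 25, and the regions of Il1r1 and Map3k1 split, with means of 6.16 and 4.46. Of the 25, 22 were gained at the stricter −log10 q and 23 with lists of equal length.

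Leaving out 1 library at a time gave 25 to 61 gained regions (61 without the first IgG1 library with IL-21), 25 to 61 of them without a KO IL-21 peak. It gave 25 to 530 regions of IgM cells alone and 1 to 355 of IgG1 cells alone. These calls asked only for the libraries left, a looser rule, so the counts do not measure the part of the omitted library alone. The WT minus KO difference ran from -0.20 (without the KO IgM library with IL-4) to 0.63 (without the KO IgG1 library with IL-4) in log2 peaks, -3.08 to 1.51 in share and -0.59 to 0.17 in the log2 ratio. The IgM minus IgG1 difference ran from -0.334 to 0.213 in share, -0.319 to 0.0831 in median fold, -0.0799 to 3.56 in the share found again and -10.7 to 0.917 in the share with a fold of at least 5. The share for IL-21 minus IL-4 stayed between -5.51 and -4.96, and the share found again between 18.4 and 24.6.

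The replicate differences of any 2 WT groups correlated at -0.06 to 0.11 over 818 regions. These values rest on called peaks, and the labels do not give the origin of replicates, so whether the replicate numbers pair the libraries was not settled. With the replicate block the share difference for IL-21 minus IL-4 was -5.23 with an exact permutation p of 0.125, the smallest that 4 pairs allow. Depth is not given with the lists, so a region without a peak may have been missed.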
